A study of Mus musculus with 17 samples.

Results

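The genes followed here are 44 genes that copy DNA or supply its building blocks, out of 47069 genes in the table of the overexpression experiment and 46880 genes that all 3 count tables share. They were taken by gene symbol from a list of the MCM2-7 helicase, the proteins that load and activate it, the replicative polymerases and primase, the sliding clamp and its loader, the single-strand binding complex RPA, the enzymes that join Okazaki fragments, and 4 nucleotide enzymes. All 44 were found, lie on 13 chromosomes, and passed the filter on low counts in all 4 comparisons. Bulk RNA sequencing counts came from cultured mouse fetal liver cells. Embryos were at day E12.5 to 13.5 and of a mouse strain with a B6J.129(Cg) background that carries the allele Gt(ROSA)26Sortm1.1, a Cas9 and EGFP transgene driven by the CAG promoter. Of 6 groups, 5 carried sgGata1, a guide RNA against Gata1, and are named Gata1s after the short form of the megakaryocyte and erythroid transcription factor GATA1. Their second transgene was LUC (a luciferase control, 3 libraries) or Arid3a (3 libraries), both with doxycycline at 1 µg/mL for 48 h, or sh-ctrl (a control short hairpin, 3 libraries), shArid3a (a hairpin against Arid3a, 2 libraries, numbered 1 and 3) or miR-125b (a microRNA, 3 libraries), these with doxycycline at 1 µg/mL for 10 days. The WT group (3 libraries) carried sgLuc and shLuc and was given no doxycycline. The labels do not say whether the libraries of a group came from separate cultures or animals, so p-values measure only the spread between these libraries, which may be technical.

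DNA replication is prepared in G1, when the origin recognition complex, CDC6 and CDT1 place the ring-shaped MCM2-7 helicase on DNA in an inactive form. In S phase CDC45 and the GINS complex bind the helicase and activate it, with the help of MCM10. DNA polymerase alpha and its primase lay down primers, polymerases delta and epsilon extend them while held to DNA by the PCNA clamp, FEN1 and DNA ligase 1 join the fragments of the lagging strand, and ribonucleotide reductase, thymidylate synthase and thymidine kinase provide deoxynucleotides. Many of these genes are activated together by E2F transcription factors at the entry into S phase, and fetal liver blood progenitors divide rapidly, so these transcripts are plentiful in that tissue.

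Totals per library ran from 31339238 to 38678649 counts for LUC and Arid3a, from 31992089 to 40859301 for sh-ctrl, shArid3a and miR-125b, and from 16362439 to 19212193 for WT. Levels are given as CPM, the counts of a gene relative to its library's total, scaled by TMM factors over all 17 libraries. Transcripts of Arid3a itself, the gene the study modulates, averaged 61.7 CPM in LUC and 65.4 CPM in the libraries labelled Arid3a. The difference was 0.08 on the log2 scale (SE 0.12, adjusted p = 0.737 by edgeR), so these libraries showed no rise in counts of the gene they are named for. Whether reads of the transgene would be counted for this gene was not tested. Arid3a was at 58.2 CPM in sh-ctrl, 21.9 CPM in shArid3a and 9.98 CPM in miR-125b, and at 247 CPM in WT, the highest of the 6 groups. Megakaryocyte and platelet markers summed to between 2893 and 5350 CPM in the Gata1s libraries and to between 1351 and 1563 CPM in WT. Myeloid markers summed to between 11473 and 13678 CPM in WT and to at most 191 CPM elsewhere, and markers of liver parenchyma summed to at most 6.55 CPM in every library.

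The 44 genes together took up between 0.594% and 0.814% of all counts of a library. Summed after scaling, they reached 7306, 7642 and 7297 CPM in the 3 LUC libraries and 6372, 6772 and 6561 CPM in the libraries labelled Arid3a, so the 2 groups did not overlap. The sum was 6147, 7280 and 5868 CPM in sh-ctrl, 8883 and 8980 CPM in shArid3a, and 9915, 8491 and 7155 CPM in miR-125b. Both shArid3a libraries stood above every sh-ctrl library, whereas the lowest miR-125b library, replicate 3, lay just under the highest control, sh-ctrl replicate 2. Within each of the 3 same-numbered pairs the miR-125b sum was the higher one. WT was the lowest group, with 5438, 5429 and 5302 CPM. In these bulk samples fewer dividing cells and less RNA of these genes per cell cannot be told apart.

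**Figure D1:**
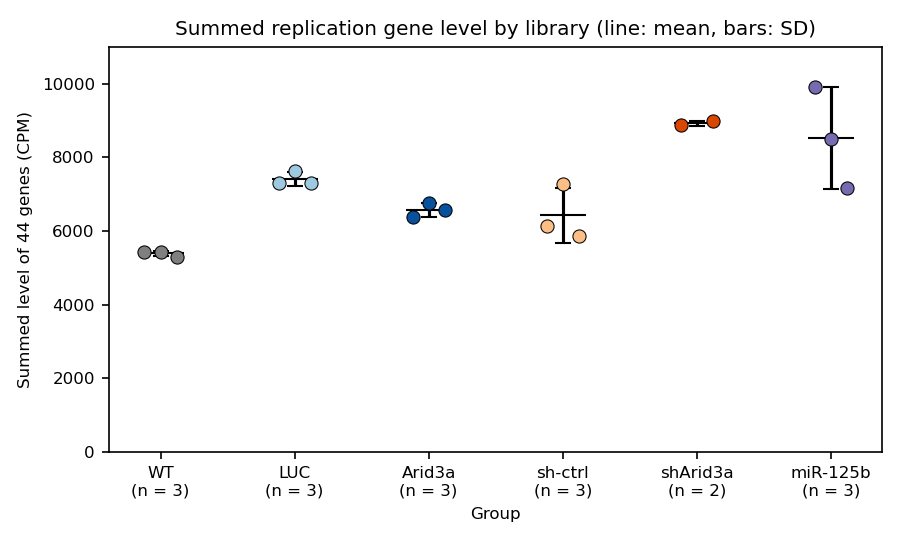
Summed level of the 44 replication and nucleotide genes (CPM, y axis) in each library, by group (x axis). Points are libraries, the line is the group mean and the bars are the SD. The shArid3a libraries lie at 8883 and 8980 CPM, above all sh-ctrl libraries, and the miR-125b libraries spread from 7155 to 9915 CPM.

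Per kilobase of gene length, which allows genes to be set beside each other, Pcna was the most abundant of the 44 in all 6 groups, at 237 ± 7.23 CPM per kilobase in LUC (SD, n = 3). Mcm3, Mcm5, Mcm6 and the ribonucleotide reductase genes Rrm1 and Rrm2 came next, between 108 and 134 CPM per kilobase in LUC. Lengths are those deposited with the counts, and exonic bases in GENCODE M21 differ for some genes. Rrm1 has 3997 bases deposited and 11012 in M21, Pola2 2872 and 8294, and Orc6 1653 and 2469. The place of such genes in this order is therefore uncertain. The MCM2-7 subunits, which form 1 ring, were not even by this measure: Mcm2 had 52.7 ± 2.23 CPM per kilobase and Mcm5 134 ± 7.32 in LUC (SD, n = 3). Before division by length their LUC means were 366 and 459 CPM. Most of the gap per kilobase thus came from the deposited lengths, 6956 and 3422 bases, and Mcm5 has 3993 exonic bases in M21. The origin recognition subunits were low apart from Orc6, with Orc1, Orc4 and Orc5 between 5.97 and 6.63 CPM per kilobase in LUC and Orc6 at 64.4 ± 1.95. Fen1, the flap endonuclease of Okazaki fragment processing, ranked last over all libraries, at 3.93 ± 0.413 CPM per kilobase in LUC. Of its exonic bases, 84.2% are also exonic in genes on the other strand (Tmem258 and Gm10143) in GENCODE M21, and the use of strand in counting is not given in the sources used here, so its count is uncertain.

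Which group held the highest mean differed by gene. It was shArid3a for 22 of the 44 genes, miR-125b for 12, LUC for 5, the libraries labelled Arid3a for 3 and WT for 2. The lowest mean was in WT for 33 genes and in miR-125b for 5. Such counts were not made over all genes, so they describe the 44 only, and the shArid3a mean rests on 2 libraries. The heat map of relative levels shows that the shArid3a and miR-125b columns are mostly above the gene means and the WT columns mostly below, with Fen1, Rfc1, Orc2, Pola1 and Pole as the most visible departures.

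**Figure D2:**
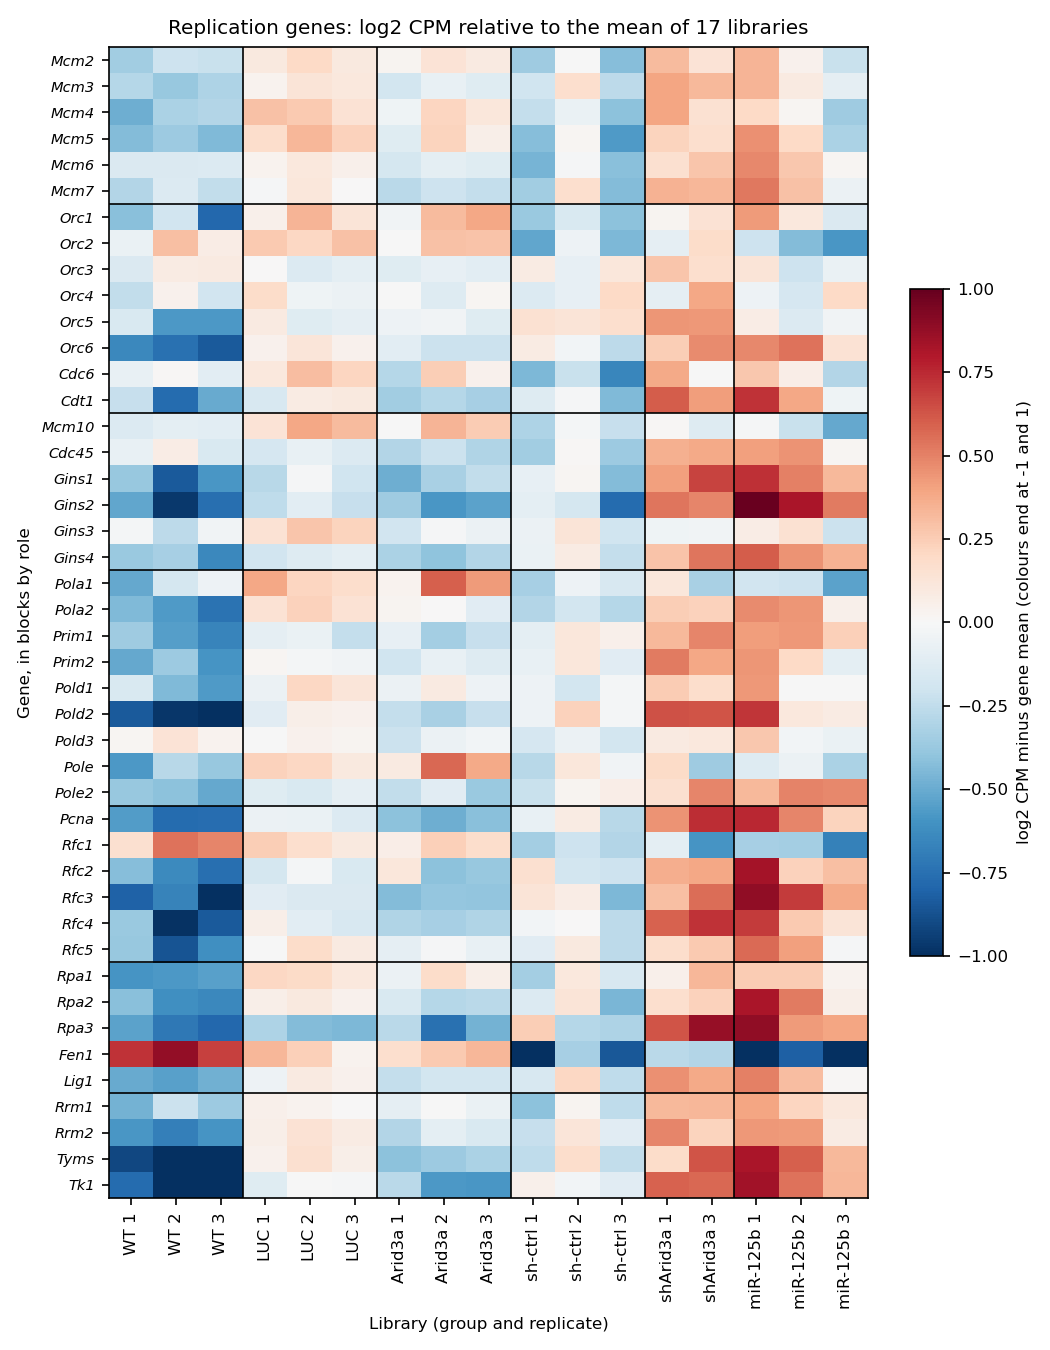
Relative level of each gene (rows, in blocks by role from the MCM2-7 helicase at the top to nucleotide supply at the bottom) in each of 17 libraries (columns, by group). Colour is log2 CPM minus the gene's mean over the libraries, red above and blue below. Fen1 and Rfc1 run against the other rows, with their highest values in WT.

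Sequences at the start of these genes are shown because most of the set lay on the same side in each comparison with a control and because E2F factors are known regulators of many of them. Promoter windows from RefSeq (GRCm38.p6, 250 bases before to 50 after the annotated start) were held for 37 of the 44 genes. They were searched on both strands for 3 E2F-type motifs of 8 bases, TTTGGCGC, TTTCGCGC and TTTCCCGC, which may overlap each other. At least 1 match was present in 15 of the 37 genes (40.5%) and in 573 of all 27025 genes with such windows (2.12%). These 27025 were not limited to genes that passed the filter on low counts, as the 37 did, so the 2 sets are not alike in expression. Each motif alone was more frequent among the 37: TTTGGCGC in 6 genes (16.2%, against 0.585% of all genes), TTTCGCGC in 6 (16.2%, against 0.374%) and TTTCCCGC in 8 (21.6%, against 1.24%). A match is a description of these letters and no evidence of binding. Printed here are 3 genes with matches that were later called higher with miR-125b, and Tyms, called as well, whose window holds none of the 3 motifs. Of the 10 called genes with a window, 3 held a match and 7 did not, and of the 27 others 12 did. Motif bases are in capitals, and each window is given 5′ to 3′ on the strand of its gene.
Mcm6, chr1:128359656-128359955, minus strand: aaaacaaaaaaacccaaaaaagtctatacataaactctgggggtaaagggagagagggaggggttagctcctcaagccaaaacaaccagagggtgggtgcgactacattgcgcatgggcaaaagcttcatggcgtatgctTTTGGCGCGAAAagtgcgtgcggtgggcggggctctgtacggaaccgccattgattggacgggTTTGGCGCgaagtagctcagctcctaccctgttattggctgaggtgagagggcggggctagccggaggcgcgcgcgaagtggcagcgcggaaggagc
Rfc3, chr5:151651159-151651458, minus strand: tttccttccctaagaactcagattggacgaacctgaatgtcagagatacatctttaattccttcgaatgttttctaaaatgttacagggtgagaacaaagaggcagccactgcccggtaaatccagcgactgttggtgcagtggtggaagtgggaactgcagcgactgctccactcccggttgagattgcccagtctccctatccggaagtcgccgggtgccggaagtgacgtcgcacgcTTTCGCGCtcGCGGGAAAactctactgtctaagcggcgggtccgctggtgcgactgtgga
Pole2, chr12:69228141-69228440, minus strand: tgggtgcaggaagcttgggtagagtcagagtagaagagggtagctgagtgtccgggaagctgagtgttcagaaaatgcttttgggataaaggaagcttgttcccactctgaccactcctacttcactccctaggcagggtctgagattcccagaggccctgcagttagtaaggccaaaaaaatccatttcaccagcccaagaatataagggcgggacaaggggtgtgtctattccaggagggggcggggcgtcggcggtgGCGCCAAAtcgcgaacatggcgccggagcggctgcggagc
Tyms, chr5:30073576-30073875, minus strand: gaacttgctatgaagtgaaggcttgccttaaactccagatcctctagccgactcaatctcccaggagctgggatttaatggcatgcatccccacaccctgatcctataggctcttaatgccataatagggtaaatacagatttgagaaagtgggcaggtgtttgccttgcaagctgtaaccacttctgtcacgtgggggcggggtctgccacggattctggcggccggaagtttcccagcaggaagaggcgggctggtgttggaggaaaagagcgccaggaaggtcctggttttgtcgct
In the Mcm6 window the first capital run holds 2 overlapping motifs, TTTGGCGC and the reverse complement of TTTCGCGC, and a further TTTGGCGC lies nearer the start. Rfc3 carries TTTCGCGC and the reverse complement of TTTCCCGC side by side, and Pole2 carries the reverse complement of TTTGGCGC just after its start.

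The first comparison set the libraries labelled Arid3a against LUC after 48 h, asking what a transgene of the DNA-binding protein ARID3A does in Gata1s cells. Of the 44 genes, 40 had a lower mean in the libraries labelled Arid3a, which showed no rise in Arid3a counts. The median log2 fold change was -0.15 against 0.01 for all 13495 genes tested. No gene passed the test: edgeR's quasi-likelihood test with Benjamini-Hochberg adjustment called 0 of the 44 and 0 of all genes (0.0%). At an unadjusted p under 0.05, 18 of the 44 were lower and none higher, where 10.5% of all genes were lower. The groups did not overlap, with the Arid3a libraries lower, for 23 of the 44 genes (52.3%) and for 14.6% of all genes. DESeq2 called 11 of the 44, all lower (Cdt1, Lig1, Mcm3, Mcm7, Pcna, Pold2, Rfc3, Rpa2, Rrm2, Tk1 and Tyms), beside 2.36% of all genes called lower. Without Arid3a replicate 1, edgeR called 17 of the 44, 16 lower and Pole higher, beside 10.5% of all genes called lower and 12.7% called higher.

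The 2 thymidine genes had the most negative log2 fold changes of the 44. Tyms, thymidylate synthase, which makes the thymidine nucleotide (mm10, chromosome 5, 30058202 to 30073617, minus strand), was at 157, 171 and 159 CPM in LUC and at 115, 119 and 123 CPM in the libraries labelled Arid3a, a log2 fold change of -0.46 (SE 0.06, adjusted p = 0.0701). Tk1, thymidine kinase 1, which salvages thymidine (chromosome 11, 117815526 to 117826092, minus strand), was at 132, 143 and 142 CPM and 119, 96.2 and 95.8 CPM, a log2 fold change of -0.42 (SE 0.10, adjusted p = 0.0977). Rrm2, the small subunit of ribonucleotide reductase that is made in S phase (chromosome 12, 24708241 to 24714146, plus strand), was at 291, 309 and 296 CPM and 229, 262 and 251 CPM, a log2 fold change of -0.28 (SE 0.07, adjusted p = 0.0977). For each of the 3, all LUC libraries lay above all libraries labelled Arid3a, while no adjusted p passed 0.05.

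Pcna, the sliding clamp (chromosome 2, 132249162 to 132253314, minus strand), was at 581, 576 and 549 CPM in LUC and 456, 429.9 and 453 CPM in the libraries labelled Arid3a, a log2 fold change of -0.35 (SE 0.06, adjusted p = 0.0774). Rfc3, a subunit of the loader that opens the clamp, was at 59.2, 58.1 and 58.0 CPM and 47.6, 49.2 and 48.8 CPM, a log2 fold change of -0.27 (SE 0.06, adjusted p = 0.0908). Rpa2, the middle subunit of the single-strand binding complex, was at 121, 124.6 and 120.1 CPM and 105, 95.6 and 96.7 CPM, a log2 fold change of -0.30 (SE 0.07, adjusted p = 0.0908). These groups were also apart in every library, with tight spreads on both sides.

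Among the helicase genes the order was similar. Mcm7, a subunit of the helicase ring, was at 411, 449 and 416 CPM in LUC and 345, 359.6 and 352 CPM in the libraries labelled Arid3a, a log2 fold change of -0.28 (SE 0.06, adjusted p = 0.0908). Cdt1, which brings the helicase to origins, was at 119, 141 and 142 CPM and 105, 109.6 and 106 CPM, a log2 fold change of -0.33 (SE 0.08, adjusted p = 0.102). Gins3, a GINS subunit, was at 21.9, 24.1 and 23.3 CPM and 17.4, 19.7 and 19.1 CPM, a log2 fold change of -0.30 (SE 0.09, adjusted p = 0.133). The 3 genes had separate groups as well, from the abundant Mcm7 to the scarce Gins3.

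Pold2, the accessory subunit of polymerase delta, was at 97.9, 110.3 and 109 CPM in LUC and 89.5, 84.6 and 90.0 CPM in the libraries labelled Arid3a, a log2 fold change of -0.27 (SE 0.07, adjusted p = 0.109). The catalytic subunits of the other polymerases stood elsewhere: Pola1 had a log2 fold change of 0.11 (SE 0.14, adjusted p = 0.691) and Pole of 0.18 (SE 0.12, adjusted p = 0.422), both with overlapping groups and the lowest value of each in Arid3a replicate 1. Origin recognition genes sat near 0, between -0.07 for Orc4 and 0.05 for Orc1, apart from Orc6 at -0.25 (SE 0.07, adjusted p = 0.106).

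The second comparison asked what a hairpin against Arid3a does over 10 days, with shArid3a against sh-ctrl. Here 41 of the 44 genes had a fitted fold change above 0, the median log2 fold change was 0.44 and that of all 14004 genes tested was -0.02. Of the 44, edgeR called 0, beside 12 of all genes (0.0857%). At an unadjusted p under 0.05, 26 of the 44 were higher and none lower, where 13.3% of all genes were higher. Both shArid3a libraries stood above all 3 sh-ctrl libraries for 36 of the 44 genes (81.8%) and for 22.3% of all genes. DESeq2 called 7 of the 44, all higher (Cdt1, Gins1, Gins2, Pcna, Rfc4, Rpa3 and Tk1), beside 2.42% of all genes called higher. The fit with no filter on low counts called those 7 with Cdc6 and Cdc45, beside 2.35% of all genes. The lowest edgeR adjusted p among the 44 was 0.0989, for Rfc4.

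The helicase activators held some of the highest fold changes. Gins2, a GINS subunit (chromosome 8, 120578633 to 120589304, minus strand), was at 43.9, 41.5 and 27.6 CPM in sh-ctrl and 68.0 and 66.1 CPM in shArid3a, a log2 fold change of 0.82 (SE 0.21, adjusted p = 0.101). Gins1, its partner in the complex, was at 42.2, 45.3 and 33.0 CPM and 59.4 and 71.3 CPM, a log2 fold change of 0.68 (SE 0.18, adjusted p = 0.101). Cdc45, which joins the helicase together with GINS, was at 67.0, 86.2 and 66.3 CPM and 109 and 111 CPM, a log2 fold change of 0.57 (SE 0.17, adjusted p = 0.107). Each was higher in both hairpin libraries than in any control, and for Cdc45 sh-ctrl replicate 2 was the control nearest to them. Gins3 and Mcm10 of the same role group had log2 fold changes of -0.02 and 0.11, with overlapping groups. The level of Gins2 is uncertain in so far as counting did not use strand. In GENCODE M21, 67.3% of its exonic bases are shared with Gse1 on the other strand. Gse1 was at 117 CPM in sh-ctrl and 49.6 CPM in shArid3a, and the part of this overlap in the fold change of Gins2 was not tested.

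Cdt1 was at 122, 133 and 97.9 CPM in sh-ctrl and 203 and 178 CPM in shArid3a, a log2 fold change of 0.69 (SE 0.21, adjusted p = 0.111). Mcm4, a ring subunit, was at 228, 256 and 202 CPM and 353 and 298 CPM, a log2 fold change of 0.49 (SE 0.18, adjusted p = 0.141). The 6 ring subunits lay close together, between 0.43 for Mcm3 and 0.50 for Mcm7 on the log2 scale, each with separate groups and none past the test.

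Rpa3 had the highest log2 fold change of the 44 here, followed by Gins2 and Rfc4. Rfc4, a clamp loader subunit (chromosome 16, 23113943 to 23127737, minus strand), was at 61.4, 62.8 and 52.1 CPM in sh-ctrl and 94.0 and 103 CPM in shArid3a, a log2 fold change of 0.73 (SE 0.18, adjusted p = 0.0989). Pcna was at 573, 639 and 500.1 CPM and 824 and 1007 CPM, a log2 fold change of 0.66 (SE 0.19, adjusted p = 0.101). Rpa3, the smallest RPA subunit (chromosome 6, 8255936 to 8259173, minus strand), was at 88.0, 61.0 and 60.0 CPM and 115 and 136 CPM, a log2 fold change of 0.83 (SE 0.21, adjusted p = 0.100). The groups were apart for all 3, by the narrowest gap, relative to the levels, for Rpa3 and Pcna. Rfc1, the large loader subunit, singled out after its values were seen, was at 89.8, 98.3 and 92.7 CPM and 106 and 75.4 CPM, with overlapping groups and a log2 fold change of -0.06 (SE 0.18, adjusted p = 0.867).

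Of the polymerase and nucleotide genes, Pola2, the second subunit of polymerase alpha, was at 92.8, 100.2 and 93.2 CPM in sh-ctrl and 135 and 133 CPM in shArid3a, a log2 fold change of 0.47 (SE 0.15, adjusted p = 0.111). Tk1 was at 148, 141 and 132 CPM and 216 and 213 CPM, a log2 fold change of 0.60 (SE 0.16, adjusted p = 0.101). Rrm2 was at 238, 304 and 259 CPM and 393 and 327 CPM, a log2 fold change of 0.42 (SE 0.17, adjusted p = 0.166). Pola2 and Tk1 had narrow groups on both sides, whereas for Rrm2 the control sh-ctrl replicate 2 came close to shArid3a replicate 3. All 4 nucleotide genes had separate groups and an unadjusted p under 0.05.

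The third comparison set miR-125b against the same sh-ctrl libraries after 10 days. In it 13 of the 44 genes (29.5%) rose and none fell by edgeR's quasi-likelihood test with Benjamini-Hochberg adjustment, where 12.1% of all 14004 genes were called higher and 24.4% were called in either direction. The 13 were Mcm6, Cdc45, Gins1, Gins2, Gins4, Pola2, Pole2, Pcna, Rfc3, Rpa2, Rpa3, Tyms and Tk1. The median log2 fold change of the 44 was 0.42 and that of all genes -0.03, with 35 fitted fold changes above 0 and 9 below. At an unadjusted p under 0.05, 24 of the 44 were higher, beside 19.7% of all genes. All miR-125b libraries stood above all sh-ctrl libraries for 19 of the 44 (43.2%) and for 22.9% of all genes. The labels give replicate numbers but no shared culture or animal, so pairs by number are a description only. By number, 32 of the 44 genes were higher in miR-125b within all 3 pairs, and Orc5 was lower in all 3. Among the 32 were Rpa2, Mcm7 and Rrm2, whose groups overlapped. How many of all genes do so was not counted, so the 32 cannot be set beside a general share. By role, 4 of 6 helicase activators, 2 of 6 clamp and clamp loader genes, 2 of 9 polymerase and primase genes, 2 of 5 RPA and Okazaki fragment genes, 2 of 4 nucleotide genes and 1 of 6 ring subunits rose, while 0 of 8 origin recognition and loading genes passed the test.

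The calls depended on single libraries. Gins2 alone of the 44 was called without sh-ctrl replicate 3 (2.23% of all genes were then called higher) and without miR-125b replicate 1 (6.08%). Without miR-125b replicate 2, 4 were called (7.7% of all genes higher), and without sh-ctrl replicate 1, 7 (8.61%). Leaving out miR-125b replicate 3 added Cdt1, Orc6 and Rfc5 and lost Pole2, beside 1013 of 13913 genes called higher. Leaving out sh-ctrl replicate 2 added Mcm7 and Rrm1 and lost Pole2 and Rpa3, beside 1404 of 13892. DESeq2 called all 13 with Cdt1, Orc6, Rfc2 and Rrm1, beside 2044 of 21664. Using no filter added Cdt1, Orc6, Rfc2 and Rfc4 and lost Pole2, beside 1938 of 21696. Gins2 was the gene called in each of the 16 alternatives run, with adjusted p-values up to 0.0278. Scaling by library totals, which placed the median of all genes at -0.22 in place of -0.03, gave a median of 0.23 for the 44 and called 5 of them, Gins1, Gins2, Rfc3 and Tk1 higher and Orc5 lower, while 6.36% of all genes were called higher and 17.5% lower. After a smooth trend with gene length was removed, an alternative added after the data had been seen, 7 of the 13 were no longer called (Cdc45, Gins1, Gins4, Pole2, Pcna, Rpa2 and Rpa3), which left 1 of 6 helicase activators. With the replicate number as a block, 16 were called, all 13 with Cdc6, Cdt1 and Rfc2, beside 12.9% of all genes.

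**Figure D3:**
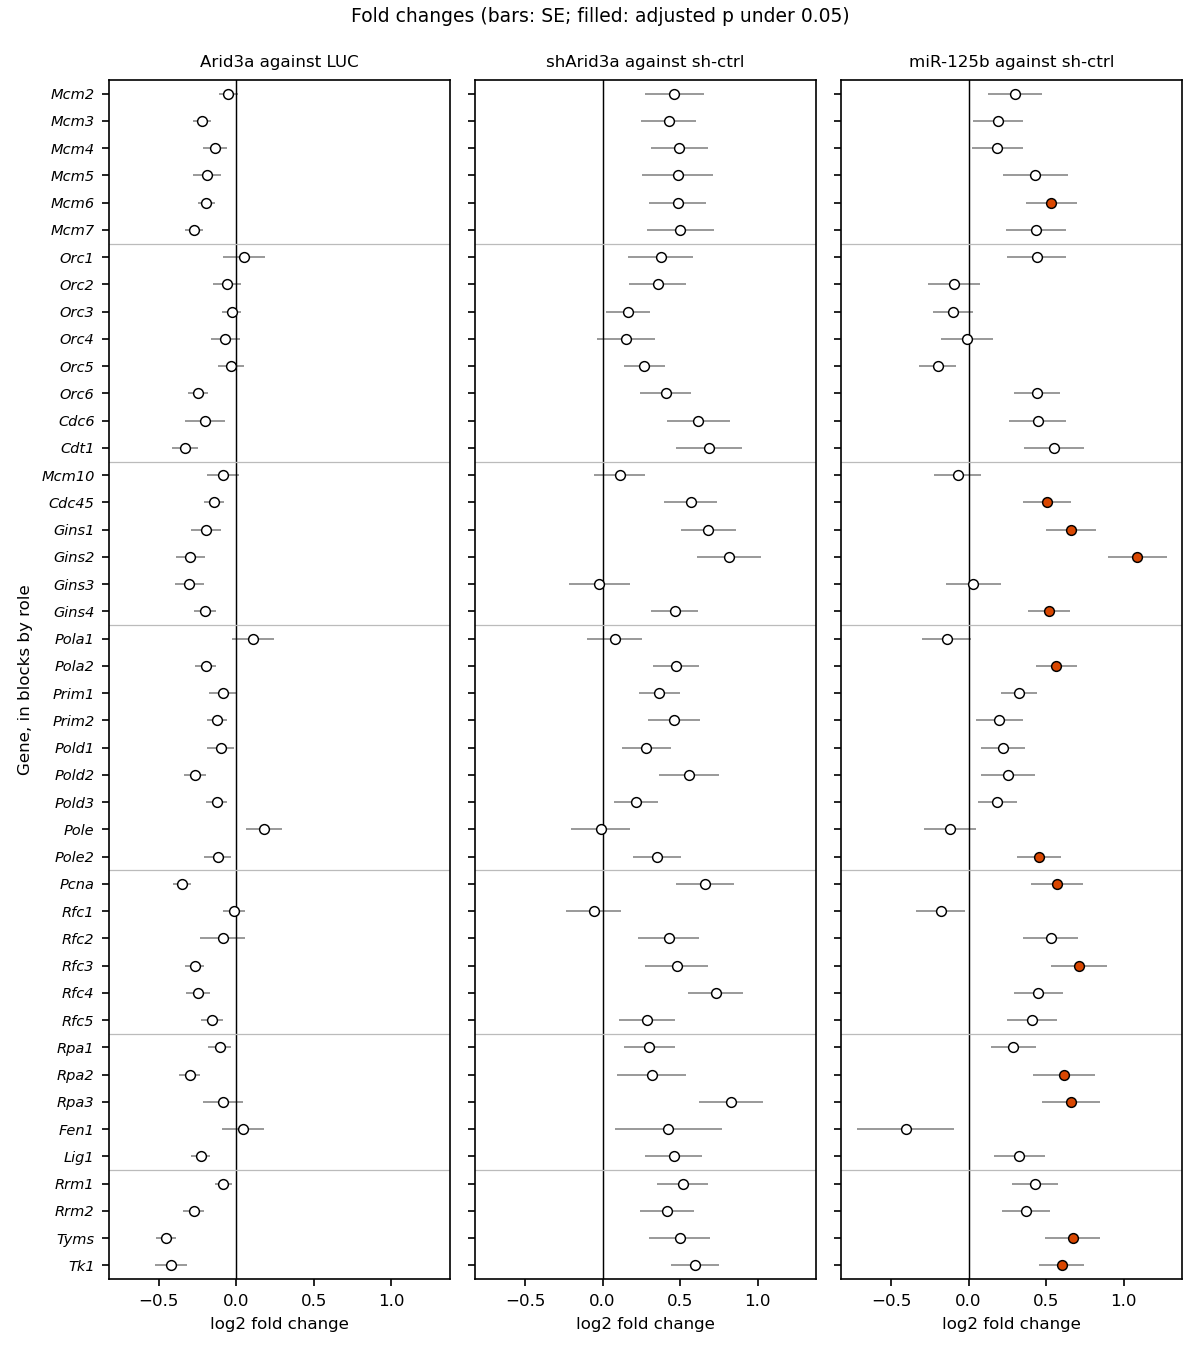
Log2 fold change (x axis, bars are SE) of each of the 44 genes (y axis, in blocks by role) in 3 comparisons, with Arid3a standing for the libraries so labelled. Filled points have an adjusted p under 0.05. Most points lie below 0 on the left and above 0 in the middle and on the right, and the 13 filled points are all in the miR-125b comparison.

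Gins2 had the largest change. It was at 43.9, 41.5 and 27.6 CPM in sh-ctrl and 93.1, 82.8 and 67.5 CPM in miR-125b, a rise of 2.13-fold, or a log2 fold change of 1.09 (SE 0.19, adjusted p = 0.00712). Every miR-125b library was above every control by a wide gap. Of the exonic bases of Gins2, 67.3% are shared with Gse1 on the other strand in GENCODE M21, and Gse1 itself was at 117 CPM in sh-ctrl and 29.0 CPM in miR-125b. The level of Gins2 is therefore uncertain in so far as counting did not use strand, which the sources used here do not give. The part of this overlap in the rise of Gins2 was not tested.

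Its complex partners rose too. Gins1 was at 42.2, 45.3 and 33.0 CPM in sh-ctrl and 73.9, 63.4 and 55.9 CPM in miR-125b, a log2 fold change of 0.66 (SE 0.16, adjusted p = 0.0189). Gins4 was at 56.0, 62.2 and 49.7 CPM and 89.3, 79.9 and 74.5 CPM, a log2 fold change of 0.52 (SE 0.14, adjusted p = 0.0231). Gins3, the remaining subunit, stayed low, between 17.1 and 22.1 CPM in these 6 libraries, with a log2 fold change of 0.03 (SE 0.18) and overlapping groups. Cdc45 rose with a log2 fold change of 0.51 (SE 0.15, adjusted p = 0.0379).

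Mcm6 was the only ring subunit called. It was at 386, 527 and 399 CPM in sh-ctrl and 744, 641 and 538 CPM in miR-125b, a log2 fold change of 0.53 (SE 0.17, adjusted p = 0.0418), and the highest control, replicate 2, lay just under the lowest miR-125b library, replicate 3. The other 5 subunits had log2 fold changes from 0.19 for Mcm4 to 0.44 for Mcm7, with overlapping groups. Whether Mcm6 differs from them was not tested. Orc6, a small subunit of the origin recognition complex, was at 107, 99.8 and 84.5 CPM and 141, 147 and 112 CPM, a log2 fold change of 0.44 (SE 0.15, adjusted p = 0.0511), so it missed the threshold although its groups were apart.

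Among the polymerases, Pola2 was at 92.8, 100.2 and 93.2 CPM in sh-ctrl and 158, 154 and 118 CPM in miR-125b, a log2 fold change of 0.57 (SE 0.13, adjusted p = 0.0170). Its catalytic partner Pola1 had a log2 fold change of -0.14 (SE 0.16, adjusted p = 0.534) with overlapping groups. A like pair was seen for polymerase epsilon, where the small subunit Pole2 rose by 0.46 (SE 0.14, adjusted p = 0.0398) and the catalytic subunit Pole had -0.12 (SE 0.17, adjusted p = 0.630) on the log2 scale. The differences within these pairs were not tested. Pola1 and Pole are among the longest of the 44 genes, Pole at 11160 bases being the longest.

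Clamp and RPA genes followed. Pcna was at 573, 639 and 500.1 CPM in sh-ctrl and 1019.9, 846 and 705 CPM in miR-125b, a log2 fold change of 0.57 (SE 0.17, adjusted p = 0.0351). Rfc3 was at 70.3, 67.5 and 46.9 CPM and 119, 104 and 83.7 CPM, a log2 fold change of 0.71 (SE 0.18, adjusted p = 0.0222). Rpa3 was at 88.0, 61.0 and 60.0 CPM and 137, 99.7 and 97.9 CPM, a log2 fold change of 0.66 (SE 0.19, adjusted p = 0.0300). All 3 had separate groups, and in each the highest miR-125b library was replicate 1. Rpa2 rose with a log2 fold change of 0.61 (SE 0.20, adjusted p = 0.0477) although its groups overlapped, since miR-125b replicate 3 was under sh-ctrl replicate 2.

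Of the nucleotide genes, Tyms was at 128, 172 and 129 CPM in sh-ctrl and 270.0, 231 and 192 CPM in miR-125b, a log2 fold change of 0.67 (SE 0.18, adjusted p = 0.0245). Tk1 was at 148, 141 and 132 CPM and 257, 209 and 179.9 CPM, a log2 fold change of 0.60 (SE 0.14, adjusted p = 0.0175). Rrm2 was at 238, 304 and 259 CPM and 378, 375 and 295 CPM, a log2 fold change of 0.37 (SE 0.15, adjusted p = 0.102). The thymidine genes thus passed the test with separate groups, while Rrm2 did not, its lowest miR-125b library lying under the highest control.

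**Figure D4:**
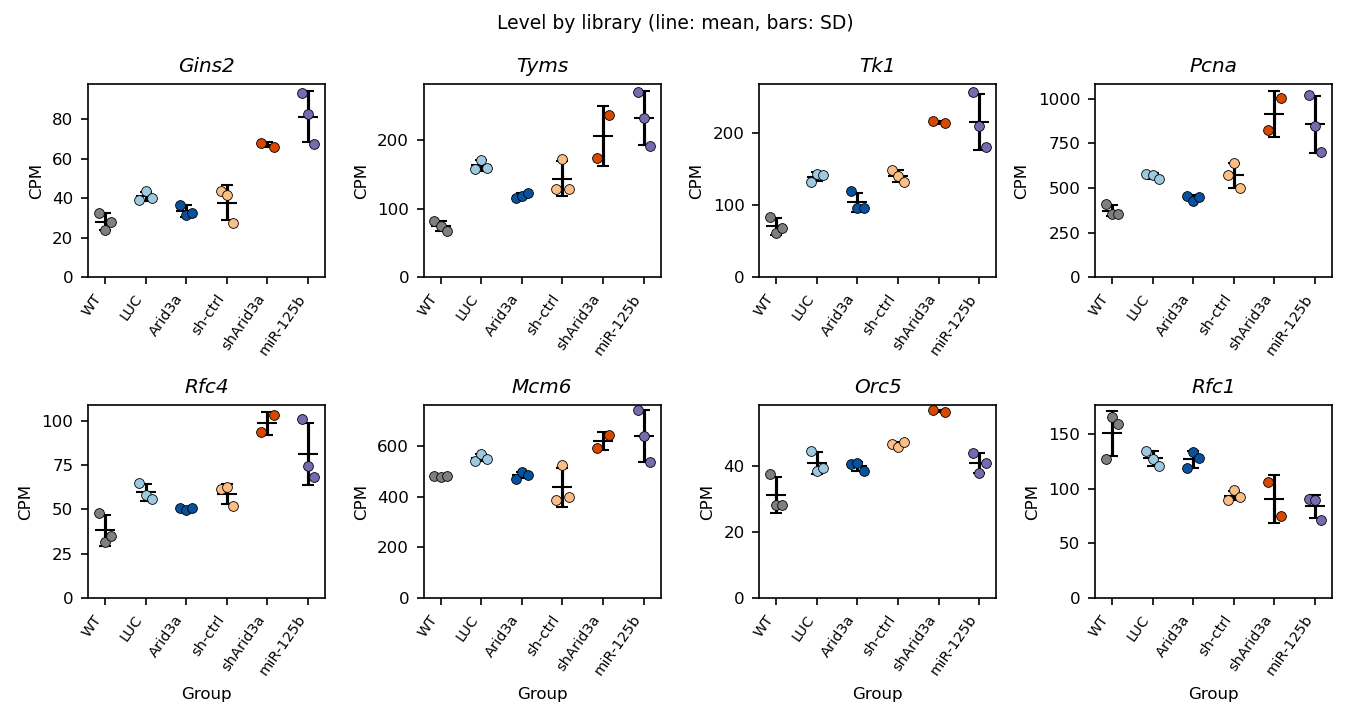
Level (CPM, y axis) of 8 genes in each library, by group (x axis). Points are libraries, the line is the group mean and the bars are the SD. Gins2, Tk1, Pcna and Rfc4 are higher in shArid3a and miR-125b than in sh-ctrl in every library, Orc5 is highest in shArid3a, and Rfc1 is at its highest in WT.

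Orc5 lay on the other side. This origin recognition subunit was the single one of the 44 genes whose miR-125b libraries all lay below all controls, at 46.7, 45.9 and 47.3 CPM in sh-ctrl and 44.1, 38.1 and 40.9 CPM in miR-125b, a log2 fold change of -0.20 (SE 0.12, adjusted p = 0.236). Such a gap below the controls was found for 22.4% of all genes, and Orc5 was singled out after its values were seen. The other genes with a fitted fold change below 0 were Orc2, Orc3, Orc4, Mcm10, Pola1, Pole, Rfc1 and Fen1, none past the test.

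Since miR-125b acts by pairing with messages, its target letters were looked for in the 44 genes. The mature strand is shown with its seed, bases 2 to 8, in capitals; both mouse loci, on chromosomes 9 and 16, give this sequence in RefSeq (GRCm38.p6).
mmu-miR-125b-5p: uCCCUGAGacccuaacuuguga
The longest annotated 3′ untranslated region of each gene in GENCODE M21 was searched on the transcript strand for the seed match CTCAGGG and for the longer form CTCAGGGA. The seed match was present in 5 of the 44 genes (11.4%) and in 1808 of 11505 genes tested (15.7%), and the longer form in 2 (4.55%) and in 636 (5.53%). The median length searched was 547 bases for the 44 and 1133 bases for all. The 2 genes with the longer form are printed with the seed match in capitals, 5′ to 3′ on the strand of the gene.
Orc2, chr1:58463923-58463952, minus strand: ttgtacagtgtgCTCAGGGattctttggaa
Rfc5, chr5:117378960-117378989, minus strand: ggtaaaatgcatCTCAGGGaggtgctttca
Against sh-ctrl, Orc2 had a log2 fold change of -0.09 (SE 0.17, adjusted p = 0.706) and Rfc5 of 0.41 (SE 0.16, adjusted p = 0.0849). The other 3 genes with a seed match, Cdc6, Rfc2 and Mcm10, had 0.45, 0.53 and -0.07. None of the 13 genes that rose has a seed match in the region searched.

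The last comparison set miR-125b directly against shArid3a, asking where the microRNA differs from the hairpin. Of the 44 genes, 0 were called by edgeR's quasi-likelihood test and 0 by DESeq2, where edgeR called 1.35% of all genes. At an unadjusted p under 0.05, 3 of the 44 were lower in miR-125b, beside 7.2% of all genes, and none was higher. The groups were apart, with miR-125b lower, for 4 genes (Orc2, Orc3, Orc5 and Fen1), beside 15.6% of all genes. The median log2 fold change was -0.06 for the 44 and -0.01 for all genes, and it ran from -0.15 to 0.025 when single libraries were left out.

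Orc5 was at 57.0 and 56.6 CPM in shArid3a and 44.1, 38.1 and 40.9 CPM in miR-125b, a log2 fold change of -0.47 (SE 0.13, adjusted p = 0.121). Orc2 was at 53.6 and 64.7 CPM and 49.4, 42.2 and 38.1 CPM, a log2 fold change of -0.45 (SE 0.18, adjusted p = 0.288). Orc3 was at 112 and 104 CPM and 101, 80.4 and 88.6 CPM, a log2 fold change of -0.27 (SE 0.14, adjusted p = 0.427). These 3 origin recognition subunits were thus higher in both hairpin libraries than in any miR-125b library, and none passed the test. Fen1, whose counts are low and uncertain, was at 6.85 and 6.73 CPM and 4.14, 4.68 and 2.65 CPM, a log2 fold change of -0.83 (SE 0.35, adjusted p = 0.302).

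The remaining genes overlapped between miR-125b and shArid3a. Mcm4 was at 353 and 298 CPM in shArid3a and 308, 272 and 209.5 CPM in miR-125b, a log2 fold change of -0.31 (SE 0.19, adjusted p = 0.491). Rfc4 was at 94.0 and 103 CPM and 101, 74.7 and 68.1 CPM, a log2 fold change of -0.28 (SE 0.18, adjusted p = 0.517). Pold2 was at 165 and 164 CPM and 174, 114 and 112 CPM, a log2 fold change of -0.30 (SE 0.19, adjusted p = 0.521). In these 3 genes miR-125b replicate 1 reached the hairpin level while replicates 2 and 3 lay below it.

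Prim2, the large primase subunit, was at 88.9 and 80.7 CPM in shArid3a and 83.9, 71.1 and 57.9 CPM in miR-125b, a log2 fold change of -0.26 (SE 0.17, adjusted p = 0.524). Gins2, at the levels given above, had a log2 fold change of 0.27 (SE 0.21, adjusted p = 0.609), with the higher mean in miR-125b. Tyms had 0.17 (SE 0.20, adjusted p = 0.765), Rrm2 -0.04 (SE 0.17, adjusted p = 0.945) and Pcna -0.09 (SE 0.19, adjusted p = 0.877), with libraries of both groups interleaved for each. A p above the threshold does not show that hairpin and microRNA act alike, and with 2 and 3 libraries an SE of 0.13 to 0.35 limits what could be seen.

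Fold changes followed gene length in these comparisons. Over all genes, the median log2 fold change went from 0.28 in genes under 2000 bases to -0.32 in genes of 6000 bases or more for shArid3a, and from 0.31 to -0.35 for miR-125b, whereas it went from -0.15 to 0.19 for the libraries labelled Arid3a. The 44 genes were set beside genes of their own length class, by the deposited lengths. For shArid3a, 7 of 7, 15 of 16, 11 of 11 and 10 of 10 members, from the shortest class to the longest, were above the median of all genes in the class. For miR-125b these counts were 6 of 7, 13 of 16, 11 of 11 and 10 of 10, and for the libraries labelled Arid3a 2 of 7, 2 of 16, 0 of 11 and 0 of 10. After a smooth length trend was removed from each library, the median of the 44 was -0.16, 0.45 and 0.37 in the Arid3a, shArid3a and miR-125b comparisons, 43 of the 44 were higher in shArid3a and 41 in miR-125b, and 9 were called with miR-125b, namely Cdc6, Gins2, Mcm6, Pola2, Rfc2, Rfc3, Rrm1, Tk1 and Tyms, beside 10.3% of all genes called higher. Ribosomal RNA-like genes took 0.0388% to 0.0696% of counts in sh-ctrl, 0.301% to 0.316% in shArid3a and 0.236% to 0.335% in miR-125b, and the part of this in the results was not tested beyond leaving those genes out, which left the same 13 calls.

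**Figure D5:**
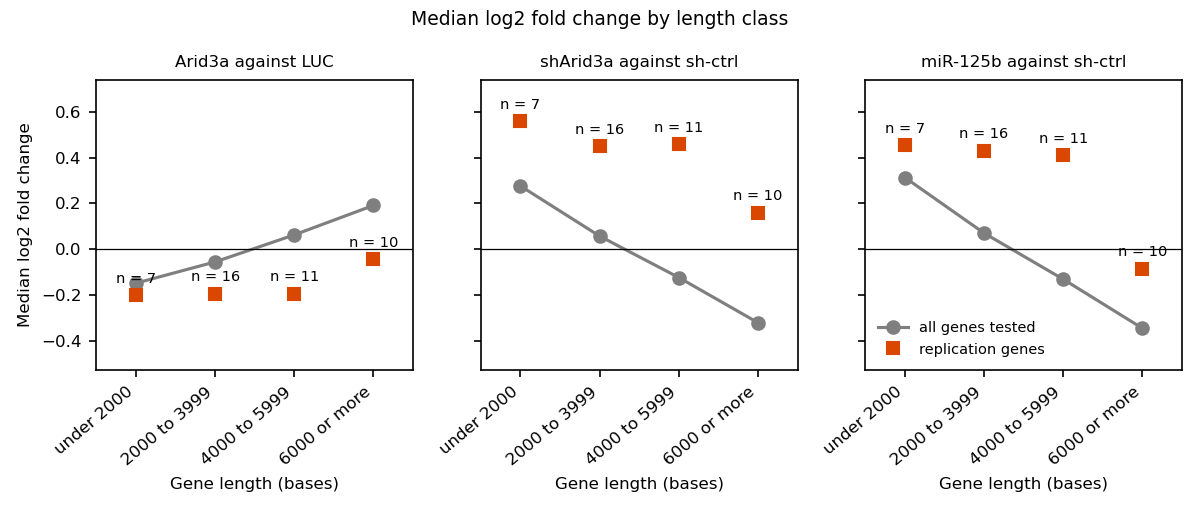
Median log2 fold change (y axis) by gene length in bases (x axis) for all genes tested (grey circles, joined) and for the 44 replication genes (orange squares, with their number), in 3 comparisons. The orange squares lie above the grey line in every class for shArid3a and miR-125b and below it in every class for the libraries labelled Arid3a.

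WT cells were set beside the Gata1s controls by level alone, since guide, hairpin, doxycycline and table differ together and cannot be told apart. All 3 WT libraries lay below all 3 LUC libraries for 37 of the 44 genes, where 36.6% of all genes lay below, and above for 1, Fen1, where 27.7% of all genes lay above, with a median log2 ratio of means of -0.47. Against sh-ctrl, WT lay below for 20 genes, where 33.6% of all genes lay below, and above for 4 (Cdc6, Pold3, Rfc1 and Fen1), where 26.9% lay above, with a median of -0.34. Tyms was at 81.4, 74.5 and 67.5 CPM in WT, against 163 ± 7.53 CPM in LUC (SD, n = 3). Pold2 was at 59.1, 54.0 and 45.1 CPM in WT and 106 ± 6.81 CPM in LUC. Cdc45 did not follow, at 80.9, 90.0 and 76.7 CPM in WT and 78.2 ± 2.67 CPM in LUC, and Rfc1 was at 127, 166 and 159 CPM in WT and 128 ± 6.74 CPM in LUC. Myeloid markers such as Mpo, at 3586 CPM in WT and at most 69.6 CPM in any other library, differ between these groups as well, and their part in the levels of the 44 genes was not tested.

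Other genes of DNA synthesis were called in both directions. From a list of 42 further replication and nucleotide genes, edgeR called 9 higher and 3 lower with miR-125b, where 12.1% of all genes were called higher and 12.2% lower, at a median log2 fold change of 0.06 beside -0.03 for all genes. Rnaseh2b, a subunit of the nuclease that removes RNA from DNA, was at 128 CPM in miR-125b and 67.9 CPM in sh-ctrl, a log2 fold change of 0.90 (SE 0.19, adjusted p = 0.0125). Rrm2b, the p53-induced small subunit of ribonucleotide reductase, fell by 1.01 (SE 0.24, adjusted p = 0.0171). No gene of the list was called in the hairpin comparison by edgeR. There 11 were higher and 1 lower at an unadjusted p under 0.05, beside 13.3% of all genes higher and 1749 of 14004 lower. DESeq2 called 3, all higher, beside 2.42% of all genes. In the libraries labelled Arid3a edgeR called none as well. At an unadjusted p under 0.05, 2 were higher and 8 lower there, beside 1472 of 13495 genes higher and 10.5% lower. DESeq2 called 6, all lower, beside 2.36% of all genes. Dut, which removes dUTP, had -0.54 (SE 0.08, adjusted p = 0.0717 by edgeR) in that comparison.

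Genes that control the step from G1 to S and genes of mitosis were called in both directions with miR-125b. Over all genes, 12.1% were called higher and 12.2% lower, and neither list was tested against these shares. Of 31 G1 to S genes, 1 rose and 4 fell: Cdk4, a cyclin D kinase, rose by 0.86 on the log2 scale (SE 0.17, adjusted p = 0.00937), and E2f2, an activating E2F factor, went from 72.9 CPM in sh-ctrl to 20.1 CPM in miR-125b, a log2 fold change of -1.88 (SE 0.24, adjusted p = 0.00332). Of 25 mitosis genes, 2 rose and 1 fell. Birc5 rose by 0.66 (SE 0.15, adjusted p = 0.0142), and Mki67, a widely used proliferation marker, fell by 0.86 (SE 0.16, adjusted p = 0.00909), from 628 CPM in sh-ctrl to 349 CPM. Mki67 was lower in shArid3a too, at 384 to 498 CPM beside 538 to 732 CPM in sh-ctrl. In shArid3a none of either list was called by edgeR, with 2 higher and 4 lower at an unadjusted p under 0.05 among G1 to S genes, 11 higher and 1 lower among mitosis genes, and medians of -0.11 and 0.31. Over all genes, 13.3% were higher and 1749 of 14004 lower at that unadjusted threshold. DESeq2 called 3 of the G1 to S genes lower and 4 of the mitosis genes higher in shArid3a. Over all genes it called 815 of 21664 lower and 2.42% higher. Among cell type markers with miR-125b, 7 of 13 megakaryocyte and platelet genes fell and 1 rose, 3 of 11 erythroid genes fell, 3 of 8 myeloid and 2 of 12 mast cell and basophil genes rose. The last 2 were Prss34, at 24.5 ± 37.1 CPM in miR-125b, and Mcpt8, at 17.2 ± 27.5 CPM (SD, n = 3), each with an SD above its mean. DESeq2 called neither of them and called Kit higher. It also called 8 megakaryocyte and 3 erythroid markers lower, and 1 megakaryocyte, 5 myeloid and 2 liver parenchyma markers higher. Over all 21664 genes, DESeq2 called 2044 higher and 2131 lower with miR-125b. Summed levels of the marker lists overlapped between miR-125b and sh-ctrl for megakaryocyte (3303 to 4210 CPM and 3537 to 5350 CPM), myeloid (106 to 191 CPM and 78.6 to 122 CPM) and mast cell markers (302 to 717 CPM and 203 to 443 CPM). They did not overlap for erythroid markers, at 394 to 423 CPM in miR-125b and 603 to 904 CPM in sh-ctrl, nor for liver parenchyma markers, at 4.41 to 6.55 CPM and 0.866 to 1.41 CPM, of which both genes tested rose. In shArid3a edgeR called no marker of any list, while 10 of 13 megakaryocyte markers had a fold change below 0, at a median of -0.49, and DESeq2 called 4 of them and 1 myeloid marker lower. Of the megakaryocyte markers Itgb3 had -1.41 (SE 0.30, adjusted p = 0.0989) and Gp6 -1.82 (SE 0.47, adjusted p = 0.101) by edgeR. In the libraries labelled Arid3a edgeR again called none, and DESeq2 called 2 megakaryocyte, 3 erythroid and 1 mast cell marker higher and 1 erythroid marker lower. Over all 22085 genes, DESeq2 called 680 higher and 521 lower there. The part of these markers in the levels of the replication genes was not tested.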

How the data were processed

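RNA of 17 libraries was analysed. Per the labels' protocols, a Quick-RNA kit of Zymo gave total RNA, from which standard Illumina libraries were made. The submitters' processing notes name fastp, HISAT2 2.0.5, featureCounts and mm10, and the strand setting and annotation release are not given in the sources used here. The authors deposited raw counts per gene in 3 tables, with no normalization, beside a gene length and position per gene, per the file headers. Tables were joined by Ensembl identifier, and no column was left unmapped.

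Levels are CPM with TMM factors over 17 libraries on 46880 shared genes. Differences were tested within a table with edgeR 4.0.16 in R 4.3.3 (filterByExpr by group, TMM, glmQLFit, glmQLFTest, two-sided, Benjamini-Hochberg over all genes tested, called at an adjusted p under 0.05). The 8 libraries of the table with the hairpins were fitted together, so shArid3a with 2 libraries shares their spread. SEs were derived from the F statistics. DESeq2 1.42.0 was an alternative, as were RLE factors, library totals, no filter, 10 counts in every library, a replicate block, leaving out ribosomal RNA-like genes, fitting only the groups compared and leaving out each library. Removal of a length trend (span 0.3) was added after the data had been seen. The edgeR fit was tested on simulated data.

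Replicate numbers come from the sample titles. To compare libraries by number, the mean of its group was first subtracted from the log2 CPM of each gene. Between miR-125b and sh-ctrl, these deviations correlated at r = 0.427, 0.151 and 0.294 for same-numbered libraries. The correlations were taken across genes, which are not independent replicates, and the subtraction ties them to each other. They do not measure how alike whole libraries are. However, miR-125b replicate 2 correlated better with sh-ctrl replicate 3 (0.205) than with its own number. The labels name no shared culture or animal, so pairs are by number only, and the main calls come from the unpaired fit. Counts are reads without molecular identifiers, and no depth-based floor was needed, since all 44 genes had counts in every library. Members and gene lists were chosen with earlier results of these data known. Genes given in every library are, per comparison, the 8 with the smallest p, the gene with the smallest p of each role group, Rrm2 and Pcna. Of every other list, up to 3 genes with the smallest p are named, by group means or fold change, with 1 exception that is not reported here. Rfc1 and Orc5 were added after their values were seen, and further members are given by fold change only. Overlaps came from GENCODE M21 (GRCm38), and 38 of the 44 genes had the same coordinates there as in the tables.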

Additional observations from a re-analysis of the deposited data

How the results depend on the processing

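Of 687 values of single named genes under alternative settings, the direction was reversed for 5, all in miR-125b against shArid3a: Tyms was at -0.013 without shArid3a replicate 1, Rrm2 at 0.06 without miR-125b replicate 3 and 0.12 without shArid3a replicate 1, and Pcna at 0.024 without miR-125b replicate 3 and 0.031 without shArid3a replicate 3. With single libraries left out, log2 values ran from -0.013 to 0.38 for Tyms, from -0.19 to 0.12 for Rrm2 and from -0.23 to 0.031 for Pcna. For the libraries labelled Arid3a against LUC, the number called was 1 with no filter, 11 with DESeq2 and 0 to 17 with single libraries left out, and the median was -0.11 with library totals. For shArid3a, 9 were called with no filter and 7 with DESeq2, and the median was 0.26 with library totals, which placed the median of all genes at -0.22, and 0.35 to 0.53 with single libraries left out. For miR-125b against sh-ctrl, 5 were called with library totals and 1 to 15 with single libraries left out, with medians of 0.23 and of 0.29 to 0.48. Against shArid3a, the median with miR-125b was -0.13 with the replicate block, -0.12 with the length trend also removed, and -0.15 to 0.025 with single libraries left out. With the replicate block, 16 of the 44 were called with miR-125b against sh-ctrl and 0 in the other 3 comparisons, and it moved no count of called members by over 1.5 times. Between LUC and the libraries labelled Arid3a, deviations from the group mean correlated at 0.158, 0.365 and 0.008 for same-numbered libraries. By the same measure, Arid3a replicate 1 correlated better with LUC replicate 3 (0.200) than with its own number. The subtraction of group means ties these values to each other, and the labels give the libraries only a shared number. A fit without 1 shArid3a library assumes that the lone library varies like the other groups. Library totals turned the split of all genes called with miR-125b from 1700 higher of 3414 to 890 higher of 3342. Over all genes, the counts called that moved most against edgeR with TMM were, for the libraries labelled Arid3a, 1201 with DESeq2, 71 with no filter and 3198 without Arid3a replicate 1 against 0; for shArid3a, 1339 with DESeq2, 1237 with no filter, 20 with library totals, 19 with 10 counts in every library, 8 without ribosomal RNA-like genes, 20 with the length trend removed with the replicate block, and 2 to 11 with single libraries left out against 12; for miR-125b, 734 without sh-ctrl replicate 3 and 1766, 2229 and 2032 without miR-125b replicate 1, 2 and 3 against 3414; and for miR-125b against shArid3a, 715 with DESeq2 and with no filter, 405 with the length trend removed with the replicate block, and 12 to 329 with single libraries left out against 189. The cause of these shifts was not tested.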

Other observations

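Ccnd1 and E2f2, which are outside the replication set, differed between miR-125b and shArid3a. Ccnd1, cyclin D1, which drives the passage through G1, had 17.4 ± 1.15 CPM in miR-125b (SD, n = 3) and 2.89 ± 0.128 CPM in shArid3a (SD, n = 2), which differed by 2.59 on the log2 scale (SE 0.37, adjusted p = 0.0121 by edgeR). In sh-ctrl it had 13.7 ± 5.73 CPM (SD, n = 3), and shArid3a against sh-ctrl gave -2.25 (SE 0.37, adjusted p = 0.0702 by edgeR), which missed the threshold. E2f2 had 20.1 ± 5.82 CPM in miR-125b (SD, n = 3) and 79.0 ± 24.2 CPM in shArid3a (SD, n = 2), with a log2 difference of -1.98 (SE 0.26, adjusted p = 0.00899 by edgeR). They were the 2 of 31 G1 to S genes that edgeR called in this comparison, 1 in each direction, beside 1.35% of all genes, and DESeq2 called Cdkn2d higher as well (named after its values were seen). Of 25 mitosis genes and of 42 further replication and nucleotide genes, 0 were called by edgeR or DESeq2. At an unadjusted p under 0.05, 0 were higher and 3 lower in each of both lists, beside 7.2% of all genes lower.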
